A study of Homo sapiens with 4 samples.

Results

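The genes described here are 34 human genes that encode enzymes of purine and pyrimidine nucleotide synthesis, chosen by gene symbol. No measured value entered the rule, but the genes were chosen with earlier results of these data known. All 34 have values among the 16490 genes of the table, as 68 RefSeq rows in all, and 33 were among the 12142 genes tested. RNA was sequenced from MV4-11 cells, a human acute myeloid leukemia (AML) cell line with an MLL rearrangement, and the values are FPKM, fragments counted on a gene and scaled to its exon length and to the mapped reads of the library. Both groups were stable lines made with a lentiviral hairpin vector and selected with puromycin. Control cells carried a non-targeting hairpin (sh-NC, labelled CEBPG presence, 2 libraries), and knockdown cells carried a hairpin against CEBPG (sh-CEBPG#3, labelled CEBPG knockdown, 2 libraries). A single hairpin was sequenced, so loss of CEBPG and any other action of that hairpin cannot be told apart, and the sources used here do not say if replicate libraries came from separate infections or cultures. The p-values therefore measure the spread between libraries, which may be technical.

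CEBPG, a bZIP transcription factor of the C/EBP family, was at 30.4 and 33.6 FPKM with sh-NC and at 19.2 and 17.1 FPKM with sh-CEBPG#3, so 56.8% of the control level was left. The FPKM totals were between 364353 and 389766, and the number of reads behind them is unknown. All 9 myeloid markers had values in every library. By the limma test described below 5 of them rose and 2 fell, against 18.5% and 23.8% of all genes tested. The lysozyme gene LYZ was at 567 and 610 FPKM with sh-NC and at 3126 and 2982 FPKM with sh-CEBPG#3 (log2 fold change 2.37), and CSF1R, MPO, CD33 and SPI1 rose by 0.80, 0.62, 0.37 and 0.33 on the log2 scale. The leukemia-associated factors MEIS1 and HOXA9 fell (-0.87 and -0.36), and FLT3, between 62.8 and 75.0 FPKM, and CSF3R were not called. The part of this shift in the changes of the nucleotide synthesis genes was not tested. Of 12 markers of other cell types, 5 had values and the other 7 were not analysed here. The erythroid marker GATA1 and the fibroblast marker COL1A1 were at or under 0.0781 FPKM in every library. The 5 markers summed to 28.6 and 32.7 FPKM with sh-NC and 53.3 and 49.7 FPKM with sh-CEBPG#3, mostly from PECAM1, which monocytes also express, and KRT18.

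Cells build purine rings stepwise on phosphoribosyl pyrophosphate (PRPP), reach IMP and branch from there to AMP and GMP. The pyrimidine ring is built before it is joined to PRPP, which leads to UMP and then to CTP. Salvage enzymes rebuild nucleotides from free bases and nucleosides, and ribonucleotide reductase and the thymidylate enzymes turn ribonucleotides into the building blocks of DNA. Dividing cells, leukemia cells included, draw heavily on these pathways, and several of the enzymes are drug targets in leukemia.

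Upon CEBPG knockdown, expression of the nucleotide synthesis genes was lower more often than higher. By limma on log2(FPKM + 1) with Benjamini-Hochberg adjustment over all genes tested, 17 of the 33 tested members fell (51.5%) and 3 rose (9.09%) at an adjusted p under 0.05. The same rule called 23.8% of all genes tested lower and 18.5% higher. The median log2 fold change was -0.22 over the members and -0.04 over all genes tested. RRM1, TK1, DHODH and PRPS1 had the largest decreases, each to between 50.6% and 56.2% of the control level, and CMPK2 and PNP had the largest increases. None of the decreases reached the 2-fold change that the study set as its threshold together with an unadjusted p under 0.05. Here that threshold was passed by 0 members downward, where it called 1.05% of all genes. Upward it was passed by 2 members, CMPK2 and PNP, where it called 2.36%. The study applied its cut-offs with DESeq2 and not with limma on log2(FPKM + 1), so its calls and these are not directly comparable. In 21 members both sh-CEBPG#3 libraries were below both sh-NC libraries and in 7 both were above. Among all genes tested the groups were apart in this way for 40.2% downward and 31.5% upward. The count of 17 rests partly on the second knockdown library, since 10 members were called lower without it and 16.7% of all genes were. When the most abundant RefSeq row stood for each gene, 10 members were called lower and 12.8% of all genes. In bulk RNA, fewer cells of a kind and less RNA per cell cannot be told apart.

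**Figure D1:**
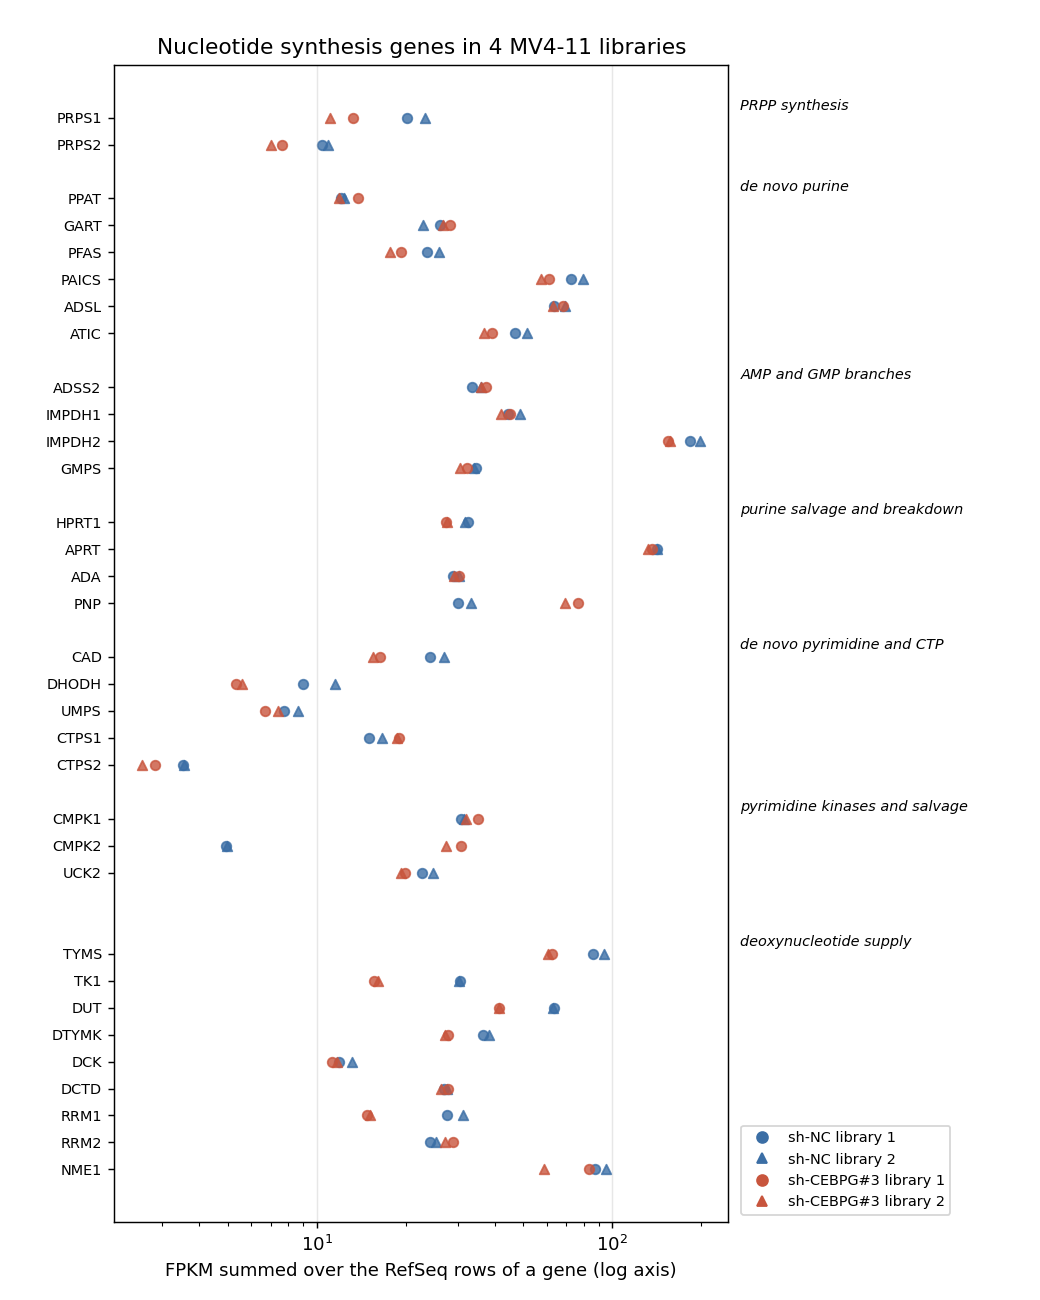
FPKM of each nucleotide synthesis gene (log axis, summed over its RefSeq rows) in the 2 sh-NC libraries (blue) and the 2 sh-CEBPG#3 libraries (red), grouped by role. CMPK2 and PNP stand far to the right in the knockdown libraries, while PRPS1, CAD, DHODH, TYMS, TK1, DUT and RRM1 stand to the left, and UPP1, with values of 0, is not drawn.

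PRPP is the sugar donor that purine and pyrimidine synthesis share, and the RNA of both of its synthetase genes fell. PRPS1 (chromosome X, 107628510 to 107651026, plus strand, GRCh38.p14) was at 20.2 and 23.2 FPKM with sh-NC and at 13.3 and 11.1 FPKM with sh-CEBPG#3. The groups were well apart, and the log2 fold change was -0.79 (SE 0.10, limma adjusted p = 2.48e-04). PRPS2, the second isozyme, was at 10.4 and 10.9 FPKM in control cells and at 7.62 and 7.001 FPKM in knockdown cells (log2 fold change -0.49, adjusted p = 0.00158). Summed over both genes, 60.2% of the control FPKM was left. PRPS2 made up 34.1% and 32.04% of this sum with sh-NC and 36.4% and 38.8% with sh-CEBPG#3. The share did not overlap between the groups, but the exact two-sided permutation test gives p = 0.33, the smallest that 2 against 2 libraries allow, and this holds for every isozyme share below.

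De novo purine synthesis was represented by 6 genes, of which 3 fell (50%, against 23.8% of all genes tested) and none rose. The median log2 fold change was -0.18. PPAT, the amidophosphoribosyltransferase that commits PRPP to purines, was at 12.1 and 12.4 FPKM with sh-NC and at 13.7 and 11.9 FPKM with sh-CEBPG#3. The groups overlapped, and the log2 fold change of 0.06 had a 95% interval of -0.15 to 0.26 (limma, SE 0.09, adjusted p = 0.647). PFAS, PAICS and ATIC, which act at later steps up to IMP, fell to between 74.5% and 78.0% of the control level, with log2 fold changes of -0.41, -0.35 and -0.36 and adjusted p-values of 0.00369, 0.00500 and 0.00481. PFAS was at 23.6 and 25.9 FPKM in control cells and at 19.3 and 17.6 FPKM in knockdown cells. PAICS and ATIC passed with all 4 libraries but not without the second knockdown library (adjusted p = 0.0628 and 0.0506), which leaves 1 gene of the group called. With its most abundant row PAICS was at -0.21 (adjusted p = 0.335). GART, a trifunctional enzyme of the same route, was at 26.2 and 23.0 FPKM in control cells and at 28.2 and 26.7 FPKM in knockdown cells, and did not pass (log2 fold change 0.16, adjusted p = 0.170). Without the first sh-NC library GART was called higher, at 0.25 (adjusted p = 0.0318). ADSL, the adenylosuccinate lyase that also serves the AMP branch, lay between 63.0 and 69.2 FPKM in all libraries and the groups overlapped.

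PPAT and PAICS lie head to head on chromosome 4 and share 25109 bases of annotated span, and the libraries were made with a kit that does not mark strand, so fragments from their overlap cannot be told apart. PPAT, on the minus strand, did not differ beyond the spread of its libraries while PAICS, on the plus strand, fell. In all, 16 of the 34 genes overlap another annotated gene in RefSeq (GRCh38.p14), 10 of them a protein-coding one. Among these, TYMS shares 10593 bases with ENOSF1, ADSL 16934 with SGSM3 and ATIC 7728 with FN1, and the same limit holds there.

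At the IMP branch point 1 of 4 genes fell, or 25%, which is near the 23.8% of all genes tested. IMPDH2, the main IMP dehydrogenase of dividing cells and the target of mycophenolic acid, had the highest FPKM of all members, at 184 and 199 with sh-NC and at 155 and 157 with sh-CEBPG#3. Its log2 fold change was -0.29 (SE 0.07, limma adjusted p = 0.00818), with 81.6% of the control level left. The call did not hold without the first (adjusted p = 0.104) or the second knockdown library (0.0827), although the value stayed at -0.28 and -0.30. IMPDH1, the second isozyme, was at 44.2 and 48.9 FPKM against 45.2 and 42.1 FPKM, overlapped between the groups and was not called (-0.09, adjusted p = 0.396). IMPDH1 made up 19.4% and 19.8% of the IMPDH sum in control cells and 22.6% and 21.2% in knockdown cells. GMPS, which makes GMP, and ADSS2, which starts the AMP branch, were not called, with log2 fold changes of -0.13 and 0.08 (95% intervals -0.30 to 0.03 and -0.09 to 0.25).

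The purine salvage and breakdown genes went in different directions. PNP (chromosome 14, 20469406 to 20477089, plus strand, GRCh38.p14), the purine nucleoside phosphorylase that cleaves inosine and guanosine to their bases, was at 29.97 and 33.2 FPKM with sh-NC and at 76.6 and 69.3 FPKM with sh-CEBPG#3. Expression was 2.31-fold higher, with a log2 fold change of 1.18 (SE 0.08, limma adjusted p = 4.30e-06), and the lower knockdown library was above the higher control library by far more than the spread of either group. HPRT1, which salvages hypoxanthine and guanine, was at 32.6 and 31.7 FPKM in control cells and at 27.4 and 27.6 FPKM in knockdown cells. It passed (log2 fold change -0.22, adjusted p = 0.0344), but not when the first sh-NC library or either knockdown library was left out (adjusted p between 0.0819 and 0.164). APRT, the adenine counterpart, and ADA, which deaminates adenosine ahead of PNP, were not called. APRT lay between 133 and 142 FPKM and ADA between 29.0 and 30.3 FPKM over all libraries. With PNP included, the summed FPKM of the 4 genes was at 113% of the control level.

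**Figure D2:**
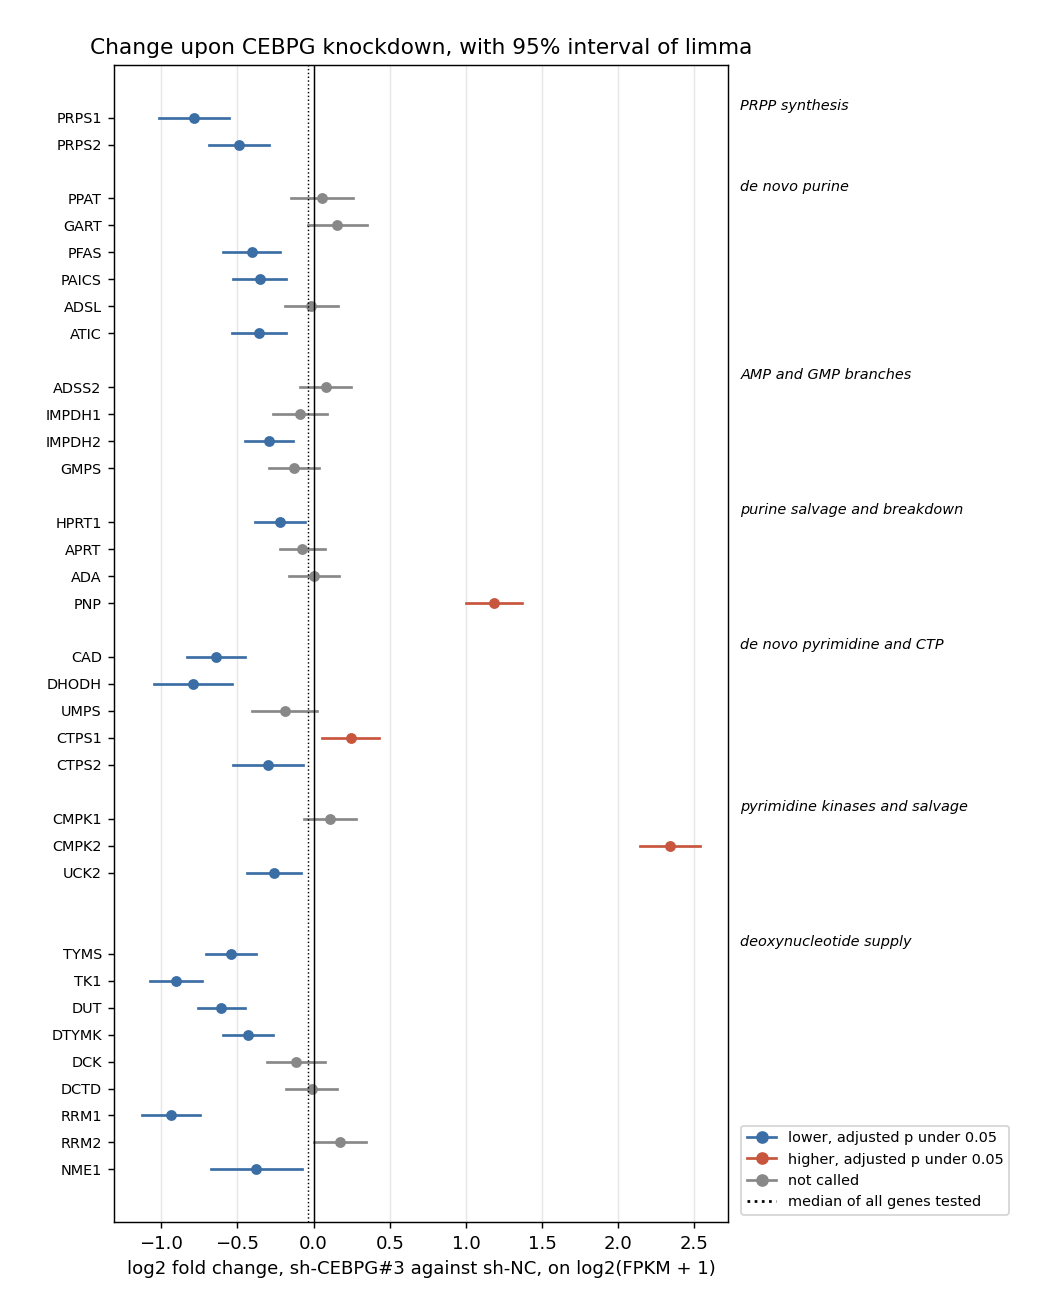
Log2 fold change of each tested member, sh-CEBPG#3 against sh-NC, on the log2(FPKM + 1) scale, with its 95% interval from limma, grouped by role. Genes called lower (blue) are 2 of 2 in PRPP synthesis, 3 of 6 in de novo purine and 3 of 5 in de novo pyrimidine synthesis. They are 6 of 9 in deoxynucleotide supply and 1 in each other group. Genes called higher (red) are CTPS1, PNP and CMPK2, and the dotted line marks the median of all genes tested, -0.04.

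Of the 5 genes that build UMP and CTP, 3 fell (60%) and 1 rose (20%), against 23.8% and 18.5% of all genes tested. CAD (chromosome 2, 27217369 to 27243943, plus strand, GRCh38.p14) carries the opening activities of the pyrimidine route in a single protein. It was at 24.1 and 26.9 FPKM with sh-NC and at 16.4 and 15.5 FPKM with sh-CEBPG#3, a log2 fold change of -0.64 (SE 0.08, limma adjusted p = 2.39e-04). DHODH (chromosome 16, 72008744 to 72027659, plus strand), the mitochondrial dihydroorotate dehydrogenase whose inhibition drives AML cells to differentiate, was at 8.95 and 11.5 FPKM in control cells and at 5.34 and 5.59 FPKM in knockdown cells. Its log2 fold change was -0.79 (SE 0.11, adjusted p = 4.47e-04). Control and knockdown libraries were apart for both genes, although the sh-NC libraries of DHODH differed more from each other than its knockdown libraries did. UMPS, which completes UMP, was at 7.72 and 8.62 FPKM against 6.69 and 7.37 FPKM and was not called (-0.19, 95% interval -0.40 to 0.02, adjusted p = 0.135).

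CTP synthase differed by isozyme. CTPS1, the isozyme that proliferating lymphocytes depend on, was at 15.02 and 16.6 FPKM with sh-NC and at 19.0 and 18.7 FPKM with sh-CEBPG#3 (log2 fold change 0.24, SE 0.08, limma adjusted p = 0.0379). CTPS2 was at 3.53 and 3.56 FPKM in control cells and at 2.83 and 2.56 FPKM in knockdown cells (-0.30, adjusted p = 0.0403). CTPS2 thus made up 19.0% and 17.7% of the CTPS sum with sh-NC and 12.95% and 12.04% with sh-CEBPG#3. These were the calls closest to the threshold besides that of NME1. CTPS1 was no longer called without the first sh-NC library or either knockdown library (adjusted p between 0.112 and 0.179). CTPS2 was no longer called without either sh-NC library or without the second knockdown library (between 0.109 and 0.152). The rows of CTPS2 were also unsteady, and its most abundant row, NM_175859, held 38.1% and 70.3% of the gene's FPKM with sh-NC and 99.4% and 71.3% with sh-CEBPG#3. With that row alone the log2 fold change of CTPS2 was 0.20 (adjusted p = 0.610).

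The largest change of any member was that of CMPK2 (chromosome 2, 6840553 to 6866635, minus strand, GRCh38.p14), a mitochondrial UMP/CMP kinase that interferon induces in many cell types. Expression was 4.91 and 4.96 FPKM with sh-NC and 30.8 and 27.4 FPKM with sh-CEBPG#3, 5.90-fold higher. The log2 fold change was 2.34 (SE 0.09, limma adjusted p = 5.70e-08), which ranked 27 from the highest among the 12142 genes tested. All of its 3 RefSeq rows were higher in both knockdown libraries than in both control libraries, and the most abundant row, NM_207315, rose from 4.35 and 4.08 FPKM to 25.6 and 24.6 FPKM (adjusted p = 0.00601 in a fit over 18624 rows). CMPK1, the cytosolic kinase of the same reaction, was at 30.8 and 31.4 FPKM against 35.2 and 32.1 FPKM and was not called (log2 fold change 0.11, 95% interval -0.07 to 0.28, adjusted p = 0.290). CMPK2 held 13.7% and 13.6% of the summed FPKM of both kinases in control cells and 46.7% and 46.0% in knockdown cells, the widest shift of the 4 isozyme pairs.

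CMPK2 stands head to head with RSAD2, the interferon-induced gene of viperin, and the annotated spans share 751 bases. RSAD2 was at 1.88 and 2.25 FPKM with sh-NC and at 6.02 and 6.25 FPKM with sh-CEBPG#3 (log2 fold change 1.22, limma adjusted p = 1.58e-05). Most other interferon genes that were listed rose beside CMPK2. All 8 tested genes of a list of 9 rose, against 18.5% of all genes tested. IFIT1 was at 0.171 and 0.309 FPKM with sh-NC and at 20.9 and 19.5 FPKM with sh-CEBPG#3. It passed the limit of a mean of 0.5 FPKM only through the knockdown libraries, so its place among the 8 depended on its rise. The median rise was 4.10 on the log2 scale, and IFI6 (6.47), OAS1 (4.25), IFIT3 (4.22) and ISG15 (4.10) led. The ninth, MX1, was too low to be tested and its groups overlapped. It was at 0.122 and 0.235 FPKM with sh-NC and at 0.230 and 0.200 FPKM with sh-CEBPG#3. The part of this interferon response in the change of CMPK2 was not tested.

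Of the remaining pyrimidine salvage genes, UCK2, a uridine-cytidine kinase, was at 22.7 and 24.7 FPKM in control cells and at 19.9 and 19.3 FPKM in knockdown cells. It was called lower (log2 fold change -0.26, adjusted p = 0.0236), but not without the second sh-NC library or either knockdown library (adjusted p between 0.0736 and 0.124). UPP1, the uridine phosphorylase, was listed at 0.0224 and 0 FPKM with sh-NC and at 0 and 0.0948 FPKM with sh-CEBPG#3, from 1 RefSeq row, and was the only member under the limit of a mean of 0.5 FPKM.

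Deoxynucleotide supply held the most genes that fell, 6 of 9 (66.7%, against 23.8% of all genes tested), and none rose. The count was 4 to 6 over the other settings, since NME1 was lost in 7 of 12 of them, and RRM2 was called higher with equal totals and with quantile normalization. The median log2 fold change was -0.43, and the summed FPKM was at 73.5% of the control level. TK1 (chromosome 17, 78174079 to 78187204, minus strand, GRCh38.p14), the thymidine kinase of S phase cells, was at 30.6 and 30.4 FPKM with sh-NC and at 15.6 and 16.1 FPKM with sh-CEBPG#3. The log2 fold change was -0.90 (SE 0.08, limma adjusted p = 1.25e-05), and 52.0% of the control level was left. TYMS (chromosome 18, 657653 to 673578, plus strand), the thymidylate synthase that fluoropyrimidines target, was at 85.9 and 94.0 FPKM in control cells and at 62.4 and 60.6 FPKM in knockdown cells, a log2 fold change of -0.54 (SE 0.07, adjusted p = 3.19e-04). Each of these genes was well separated between the groups, so RNA of TK1, for salvage, and of TYMS, for de novo synthesis of thymidylate, both fell. The decrease of TYMS, to 68.4% of the control level, was smaller than that of TK1, and the difference between them was not tested. Fragments from the 10593 bases of annotated span that TYMS shares with ENOSF1 cannot be told apart. DTYMK, which phosphorylates dTMP from either source, was at 36.5 and 38.3 FPKM against 27.7 and 27.2 FPKM (log2 fold change -0.43, adjusted p = 0.00120).

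DUT (chromosome 15, 48331095 to 48343373, plus strand), the dUTPase that keeps uracil out of DNA and makes the dUMP that TYMS uses, was at 63.8 and 63.1 FPKM with sh-NC and at 41.2 and 41.4 FPKM with sh-CEBPG#3. The log2 fold change was -0.61 (SE 0.07, limma adjusted p = 1.02e-04), and replicate libraries differed by less than 1 FPKM. Most of this came from the row NM_001948, the nuclear form, which went from 50.6 and 49.8 FPKM to 29.7 and 30.8 FPKM (log2 fold change -0.71, adjusted p = 0.0165 in the fit over rows). The row of the mitochondrial form, NM_001025248, was at 11.1 and 12.3 FPKM in control cells and at 9.84 and 8.50 FPKM in knockdown cells, and was not called (-0.32, adjusted p = 0.166). The difference between the forms was not tested.

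The subunits of ribonucleotide reductase did not move together. RRM1 (chromosome 11, 4094685 to 4138932, plus strand, GRCh38.p14), the large catalytic subunit, was at 27.6 and 31.4 FPKM with sh-NC and at 14.7 and 15.1 FPKM with sh-CEBPG#3. It had the largest decrease of all members, a log2 fold change of -0.93 (SE 0.09, limma adjusted p = 2.29e-05), and ranked 177 from the lowest among all genes tested. RRM2, the small subunit that holds the tyrosyl radical and is made in S phase, was at 24.1 and 25.3 FPKM in control cells and at 28.8 and 27.2 FPKM in knockdown cells. Both knockdown libraries were above both control libraries, yet RRM2 was not called with the values as deposited (log2 fold change 0.18, 95% interval 0.00451 to 0.35, SE 0.08, adjusted p = 0.0914). It was called higher with library totals made equal (0.15, adjusted p = 0.0300) and with quantile normalization (0.19, adjusted p = 0.0135). RRM1 per RRM2 on the FPKM scale was 1.14 and 1.24 with sh-NC and 0.512 and 0.554 with sh-CEBPG#3. RRM2B, the small subunit induced by p53 and named here after its values were seen, rose from 12.8 and 12.9 FPKM to 21.0 and 19.1 FPKM (log2 fold change 0.60, adjusted p = 3.16e-04).

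**Figure D3:**
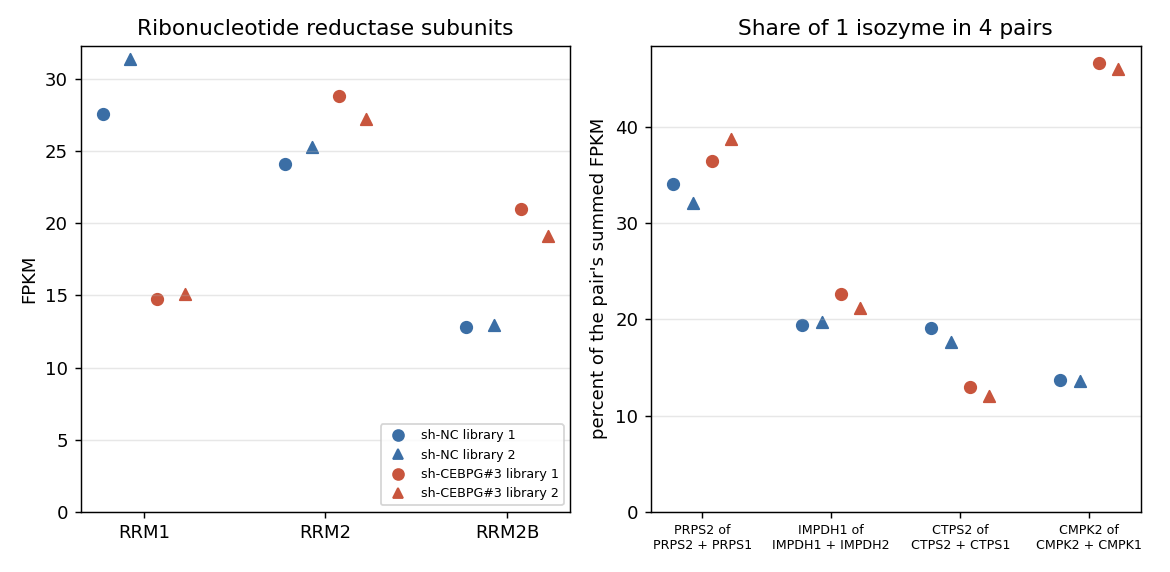
Left, FPKM of the ribonucleotide reductase subunits RRM1, RRM2 and RRM2B in each library. Right, the percent of a pair's summed FPKM held by PRPS2, IMPDH1, CTPS2 and CMPK2 in each library, with sh-NC in blue and sh-CEBPG#3 in red. RRM1 is lower and RRM2B higher in both knockdown libraries, and the CMPK2 share goes from 13.7% and 13.6% to 46.7% and 46.0%.

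DCK, the deoxycytidine kinase that activates cytarabine, and DCTD, the dCMP deaminase, were not called, with log2 fold changes of -0.11 (95% interval -0.31 to 0.08) and -0.01 (-0.18 to 0.16). DCK lay between 11.3 and 13.2 FPKM and DCTD between 26.2 and 27.8 FPKM over the 4 libraries. NME1, a nucleoside diphosphate kinase, was at 87.6 and 95.04 FPKM in control cells and at 83.7 and 58.7 FPKM in knockdown cells. It was called lower (-0.38, SE 0.13, adjusted p = 0.0458), but the knockdown libraries differed widely, and without the second of them the log2 fold change was -0.12 (adjusted p = 0.471). That library held 1.21 FPKM in the row NM_000269, against 16.8 FPKM in the other knockdown library and 23.2 and 26.6 FPKM in the control libraries. NME1 also lies inside the read-through gene NME1-NME2, whose reads cannot be told from its own over the 8610 bases that they share.

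The genes of S phase and proliferation were lower beside those of deoxynucleotide supply. Of 16 such genes 15 fell (93.8%, against 23.8% of all genes tested) and none rose, with a median log2 fold change of -0.71. Their summed FPKM was 746 and 811 with sh-NC and 452 and 430 with sh-CEBPG#3, or 56.6% of the control level. The largest decreases were those of the replicative helicase subunits MCM6 (-1.15) and MCM4 (-1.04). CCNE2, the gene not called, was lower in both knockdown libraries as well. In the same libraries 6 of the 9 genes of deoxynucleotide supply were called lower. RRM2, DCTD and DCK were not, at 113%, 99.1% and 91.7% of the control level. The part of cell proliferation in the changes of TK1, TYMS, DUT, RRM1 and the other members was not tested.

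Outside the members, 38 further nucleotide pathway genes were tested, of which 9 fell and 8 rose, with a median log2 fold change of -0.10. These shares, 23.7% and 21.1%, were near those of all genes tested, 23.8% and 18.5%. Past 1 on the log2 scale were 3 increases. TYMP, the thymidine phosphorylase, went from 13.4 and 14.05 FPKM to 50.8 and 47.2 FPKM (1.76, limma adjusted p = 1.76e-07). SAMHD1, the dNTP triphosphohydrolase that also limits cytarabine, went from 40.7 and 44.2 FPKM to 88.5 and 83.3 FPKM (1.00, adjusted p = 7.02e-06). CDA, the cytidine deaminase, was listed at 0 and 0.478 FPKM with sh-NC and at 1.83 and 2.12 FPKM with sh-CEBPG#3 (1.29, adjusted p = 3.78e-04). CDA passed the limit of a mean of 0.5 FPKM only through the knockdown libraries. The same holds for ADSS1, also among the 8 that rose and named here for its low control values. It was at 0.490 and 0.502 FPKM with sh-NC and at 1.60 and 2.13 FPKM with sh-CEBPG#3. Of the 7 folate genes that supply one-carbon units to purines and thymidylate, 3 fell (42.9%) and 1 rose (14.3%). SHMT1 fell from 14.3 and 13.2 FPKM to 6.58 and 5.78 FPKM (-1.04, adjusted p = 2.08e-05).

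**Figure D4:**
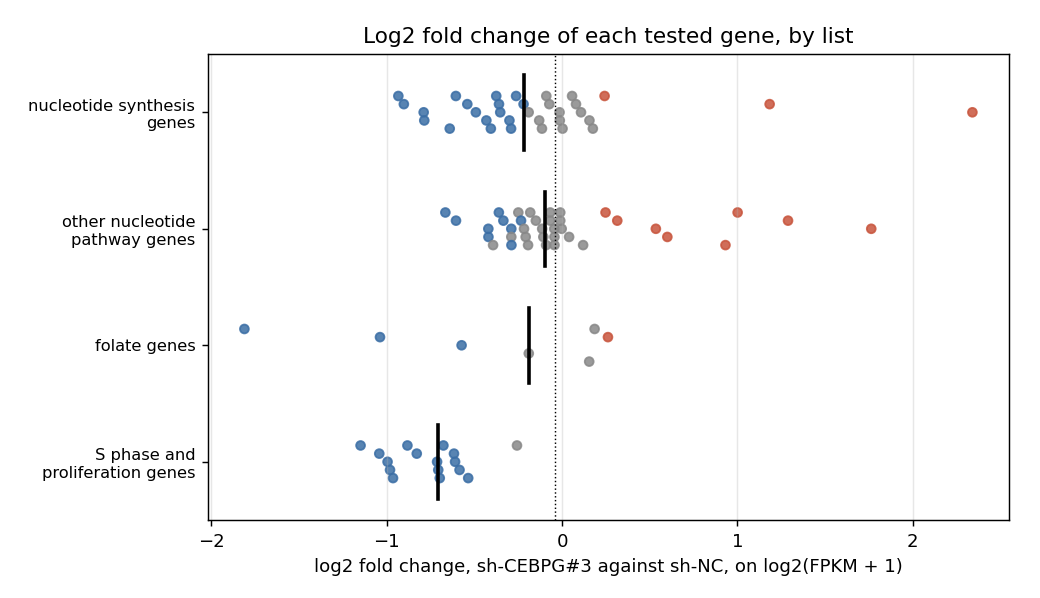
Log2 fold change (log2(FPKM + 1) scale) of each tested gene of the nucleotide synthesis genes, the other nucleotide pathway genes, the folate genes and the S phase genes, with each list's median as a bar and the median of all genes as a dotted line. Genes called lower are blue and genes called higher red, and the list medians are -0.22, -0.10, -0.19 and -0.71.

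When each RefSeq row was tested by itself, 59 rows of the members passed the limit on low values, 7 fell and 2 rose, while 4.08% of all 18624 rows fell and 4.16% rose. The rows that fell belonged to PRPS1, CAD, TK1, TYMS, DUT, RRM1 and ADSL, and those that rose to PNP and CMPK2. ADSL was the exception to its own sum: the row NM_001123378 fell from 15.2 and 14.2 FPKM to 8.15 and 7.53 FPKM (log2 fold change -0.83, limma adjusted p = 0.0243), while the most abundant row, NM_000026, was at 46.2 and 43.8 FPKM against 43.7 and 54.4 FPKM. In 18 members FPKM is split over more than 1 row, and the estimates of single rows varied between libraries of the same group.

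The promoters of the members were read in RefSeq (GRCh38.p14) for 32 genes, over a fixed window around the annotated start, and both strands were searched for 6 motifs. The E-box CACGTG, bound by bHLH factors, was in 5 members, or 15.6%, and in 7.43% of all 27305 promoters. Of these members DHODH, ATIC and NME1 were called lower and PPAT and DCK were not, where 51.5% of all tested members were called lower. The CCAAT box, written CCAAT, was in 11 members (34.4%, against 35.7% of all). The C/EBP-ATF response element TGATGNAA and the C/EBP site TTGCNNAA were each in 1 member (3.12%, against 3.67% and 10.6%), DCTD and NME1. The E2F site TTTNGCGC was in DCK alone (3.12%, against 1.83%), and the interferon-stimulated response element (GAAA on either side of a short gap) was in none, where 3.65% of all promoters held it, and so not in this window of CMPK2. A match is a description of letters and not evidence of binding. The windows below hold the E-boxes of PPAT and DHODH and the 1 of 2 E-boxes of ATIC that lies before its start. The E-boxes of DCK and NME1 are not shown. Also below are the response element of DCTD and the CCAAT boxes of the reductase subunits, which moved apart. Capitals mark the motif, each sequence is on the strand of its gene, and positions count as 0 from the start in the promoter table. For RRM2 that start lies downstream of the first annotated base of the gene, so its boxes fall inside the annotated span (chromosome 2, 10122568 to 10211010).
PPAT E-box at -182, chr4:56435781-56435808, minus strand: acggagatttcCACGTGcagcaaataca
DHODH E-box at -159, chr16:72008574-72008601, plus strand: ccgctactgcgCACGTGcacccaaccag
ATIC E-box at -46, chr2:215312002-215312029, plus strand: ggccggcgggcCACGTGataagcccgga
DCTD response element at -169, chr4:182917762-182917791, minus strand: ctctaagcagtTGATGGAAcacggatggtg
RRM1 CCAAT box at -28, chr11:4094646-4094672, plus strand: catgtccatatCCAATggggcccatgg
RRM2 CCAAT box at -123, chr2:10122605-10122631, plus strand: gcaaggcgcagCCAATgggaagggtcg
RRM2 CCAAT box at -93, chr2:10122635-10122661, plus strand: gcatggcacagCCAATgggaagggccg
RRM2 CCAAT box at -66, chr2:10122662-10122688, plus strand: gggcaccaaagCCAATgggaagggccg
RRM2 holds the box 3 times in its window and RRM1 holds it once.

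Of the 20 members called, 10 were called in all of 12 other settings of the analysis: PRPS1, PFAS, CAD, DHODH, TYMS, TK1, DUT and RRM1 as lower, and CMPK2 and PNP as higher. PRPS2, PAICS, ATIC, IMPDH2, HPRT1, CTPS1, CTPS2, UCK2, DTYMK and NME1 were lost in at least 1 of them.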

How the data were processed

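RNA-seq of 4 MV4-11 libraries (2 sh-NC, 2 sh-CEBPG#3) was analysed. Clean reads were mapped with HISAT by the authors, who deposited FPKM per RefSeq row. The submitters' processing notes name HISAT2 2.0.5 and hg38, and the program that computed FPKM is not given in the sources used here. FPKM was summed per gene symbol, and genes that averaged 0.5 FPKM or more were tested on log2(FPKM + 1) with limma 3.58.1 in R 4.3.3 (lmFit, eBayes with a trend, no block). Fold changes on this scale understate those of low genes. Benjamini-Hochberg adjustment ran over all 12142 genes. The fit was tested on simulated data. Among 1027 rows under 0.06 FPKM, 1.3% shared the commonest ratio between libraries, so whole reads were not recovered, no count test was run, and no interval or floor from depth is given. Across genes, r was 0.993 and 0.994 within groups and between 0.962 and 0.964 across them. An exact permutation test of 2 against 2 libraries cannot go under 0.33. The members and all gene lists were chosen with earlier results of these data known. Every member is named, in full where called with an absolute log2 fold change above 0.5 and for PPAT, IMPDH2, CTPS1 and RRM2, and genes of other lists where past 1. Other settings tried were a pseudocount of 0.1 or 0.01, all genes unfiltered, a minimum mean of 1 FPKM, equal totals, quantile normalization, a replicate block, the most abundant RefSeq row, and each library left out. The fit per row, and leave-one-out for the isozyme shares, were added after the data were seen. Promoters and loci come from RefSeq (GRCh38.p14). Values of some single listed genes are not reported here.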

Additional observations from a re-analysis of the deposited data

How the results depend on the processing

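The counts of 17 members lower and 3 higher were 14 to 18 and 2 to 4 under both pseudocounts, both filters, equal totals, quantile normalization and the replicate block (14 and 2). With the most abundant RefSeq row the lower count was 10 and the median log2 fold change of the members -0.13. With 1 library left out at a time, the lower count was 10 to 15 and the median -0.26 to -0.20. The median of all genes tested stayed between -0.07 and 0 in every setting. CEBPG was lower and called in all settings. Same-numbered libraries deviated together with r = 0.061, so they were taken to share only a number, and the replicate block lost HPRT1, CTPS1, CTPS2 and UCK2.

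Direction changed for 8 members and 1 isozyme share, and of these only CTPS2 had been called. With the most abundant row the log2 fold change was 0.11 for ADSL, 0.16 for IMPDH1, 0.055 for APRT, 0.20 for CTPS2, -0.030 for CMPK1 and 0.14 for DCTD, and the CTPS2 share was higher by 0.744 percentage points, where it was lower by 5.86 points before. With 1 library left out at a time, the value was -0.040 to 0.15 for PPAT, -0.077 to 0.049 for ADSL, -0.027 to 0.033 for ADA and -0.054 to 0.028 for DCTD. ADA was at -0.023 with equal totals. The cause was not tested. Depth is unknown, so the precision of low genes such as UPP1 and CTPS2 cannot be given.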
